A study of Rattus norvegicus with 12 samples.

Results

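The tropomyosin genes Tpm1, Tpm2, Tpm3 and Tpm4 were followed in rat hearts that had been made to express human VEGF-B or a control protein. Probes were taken by gene symbol in the array's annotation, which gave 4 of the 22517 probes on the array: 1 for Tpm1, 2 for Tpm3 and 1 for Tpm4. No probe was named Tpm2, so the results cover 3 of the 4 genes. The data are RNA from the left ventricle of 12 Wistar rats, each on 1 array of an Illumina rat bead platform. In AAV-VEGF-B hearts (n = 6) an adeno-associated virus vector of serotype 9, injected into the tail vein, carried human VEGF-B, and in AAV-HSA hearts (n = 6) the same kind of vector carried human serum albumin (HSA), so all rats received a virus and no uninjected heart was among them. With each vector there were 3 females, taken 2 months after injection, and 3 males, taken at 4 months and injected again in between. Sex, expression duration and the second injection therefore cannot be told apart, and the 2 sets are called 2-month females and 4-month males. The age of the rats was not given in the sources used.

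Tropomyosin is a coiled-coil dimer that lies end to end along actin filaments. In the sarcomere it works with the troponin complex, which moves it on the filament when calcium binds and so opens or closes the sites for myosin. In other cells, tropomyosins without troponin mark out actin filament populations that differ in their myosins and in their turnover by cofilin. Alternative promoters and exons give sarcomeric and non-muscle isoforms from 1 gene. Tpm1 gives the main tropomyosin of rodent heart muscle as well as smooth muscle and cytoskeletal isoforms. Tpm2 gives the beta form of skeletal and smooth muscle. Tpm3 gives a slow skeletal muscle isoform from an upstream start and short cytoskeletal isoforms from an internal start. Tpm4 is a short cytoskeletal tropomyosin in rodents. The RefSeq gene table of rat assembly GRCr8 listed 28 transcripts for Tpm1, 24 for Tpm3, 4 for Tpm2 and 1 for Tpm4, and pseudogenes named after Tpm1 (1), Tpm2 (1) and Tpm3 (3). Each probe was annotated to 1 transcript. The letters of the probes were not at hand, so which of a gene's isoforms a probe reads, and whether a pseudogene adds to it, is not known here, and Tpm1, Tpm3 and Tpm4 are contrasted as genes.

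The start regions are shown because the genes compared below differ in where transcription can begin. The sequences are the 250 bases before a start site on the gene's own strand, from RefSeq on GRCr8, and run 5′ to 3′. Capitals mark matches to any of 8 short motifs searched on both strands. 3 of them are known from muscle genes: the CArG box bound by serum response factor, the MEF2 element, and the MCAT element (CATTCC) bound by TEAD factors. The E-box (CANNTG) is bound by basic helix-loop-helix proteins and the GC box (GGGCGG) by Sp factors, the latter being usual in genes active in most cells. The other motifs were the TATA box (TATAAA) near which transcription begins in many regulated genes, the cyclic AMP response element (TGACGTCA) and, for the AP-1 factors, their usual site (TGANTCA).
Tpm1, chr8:76543416-76543665, minus strand: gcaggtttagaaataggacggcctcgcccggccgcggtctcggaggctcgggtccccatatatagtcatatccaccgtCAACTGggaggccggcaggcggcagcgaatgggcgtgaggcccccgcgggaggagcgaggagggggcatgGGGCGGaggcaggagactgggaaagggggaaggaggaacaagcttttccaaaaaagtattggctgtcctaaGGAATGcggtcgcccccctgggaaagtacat
Tpm3 upstream start, chr2:177814633-177814882, plus strand: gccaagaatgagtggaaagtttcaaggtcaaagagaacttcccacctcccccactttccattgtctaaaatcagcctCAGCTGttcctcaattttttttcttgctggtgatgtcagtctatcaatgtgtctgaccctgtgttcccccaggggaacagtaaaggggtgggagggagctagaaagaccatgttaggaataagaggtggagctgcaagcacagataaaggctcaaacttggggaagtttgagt
Tpm3 downstream start, chr2:177821115-177821364, plus strand: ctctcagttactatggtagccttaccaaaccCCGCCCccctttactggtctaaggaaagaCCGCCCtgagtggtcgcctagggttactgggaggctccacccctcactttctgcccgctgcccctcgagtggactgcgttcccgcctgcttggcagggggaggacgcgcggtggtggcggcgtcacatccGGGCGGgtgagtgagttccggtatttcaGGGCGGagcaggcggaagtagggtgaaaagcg
Tpm4, chr16:17732484-17732733, minus strand: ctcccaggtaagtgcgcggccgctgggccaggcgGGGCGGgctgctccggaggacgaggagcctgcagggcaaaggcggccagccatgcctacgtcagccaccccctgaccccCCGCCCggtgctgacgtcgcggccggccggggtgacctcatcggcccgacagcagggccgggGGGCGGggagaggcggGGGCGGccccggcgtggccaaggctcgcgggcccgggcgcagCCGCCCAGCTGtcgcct

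The 2 Tpm3 starts lie 6482 bases apart. The window before the upstream start held 1 E-box and no other motif of the 8 and was 46.8% G or C, whereas the window before the downstream start held 4 GC boxes and was 63.2% G or C. The table held another Tpm3 start 42 bases further downstream, whose window overlaps this one. Like the downstream Tpm3 window, the Tpm4 window was rich in GC boxes, with 5 of them, 1 E-box that overlaps the last GC box, and 79.2% G or C. The Tpm1 window held 1 E-box, 1 GC box and, 31 to 26 bases before the start, 1 MCAT element. Of all 33465 windows of this length in the table, 65.5% held an E-box, 30.5% a GC box and 12.1% an MCAT element, and the median G or C content was 51.2%. Only full matches to a motif were counted, for the CArG box CCWWWWWWGG with W for A or T, and near matches were not searched. By this count none of these 4 windows held a CArG box, a MEF2 element, a TATA box, a cyclic AMP response element or an AP-1 site, which were present in 1.497%, 2.96%, 12.9%, 1.59% and 6.34% of all windows. These matches describe letters only, and the arrays do not show which start was used.

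Between 8827 and 9800 probes per array had a detection p-value under 0.05, the measure of signal above background used here, and the 10281 probes that passed it on at least 3 arrays were tested. Signals were background-corrected, quantile normalized and taken to log2, and differences are log2 changes from limma with p-values adjusted by Benjamini-Hochberg over these probes. All 4 tropomyosin probes were tested. Over all 10281 tested probes, 429 were higher and 106 lower in AAV-VEGF-B hearts, or 842 and 27 when arrays were scaled by their medians. Markers of the labelled tissue were present. All 10 cardiomyocyte markers with a named probe were tested, and their summed normalized signal ran from 189497 to 216522 with AAV-HSA and from 190003 to 210080 with AAV-VEGF-B. The vector carries human sequences, so no probe here checks which vector a rat received.

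Tpm3 and Tpm4 rose in AAV-VEGF-B hearts, by 1.61-fold and 1.503-fold, while the change of Tpm1 lay near 0. The rise of Tpm3 was seen on 1 of its 2 probes, and the other was close to background. Thus 2 of the 4 tropomyosin probes passed the test, both upwards, where 4.17% of all tested probes were called higher. In both cases every AAV-VEGF-B heart was higher than every AAV-HSA heart (6 against 6), a separation that 2.96% of all tested probes showed. In RNA of whole tissue, more cells of a type and more RNA per cell cannot be told apart.

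**Figure D1:**
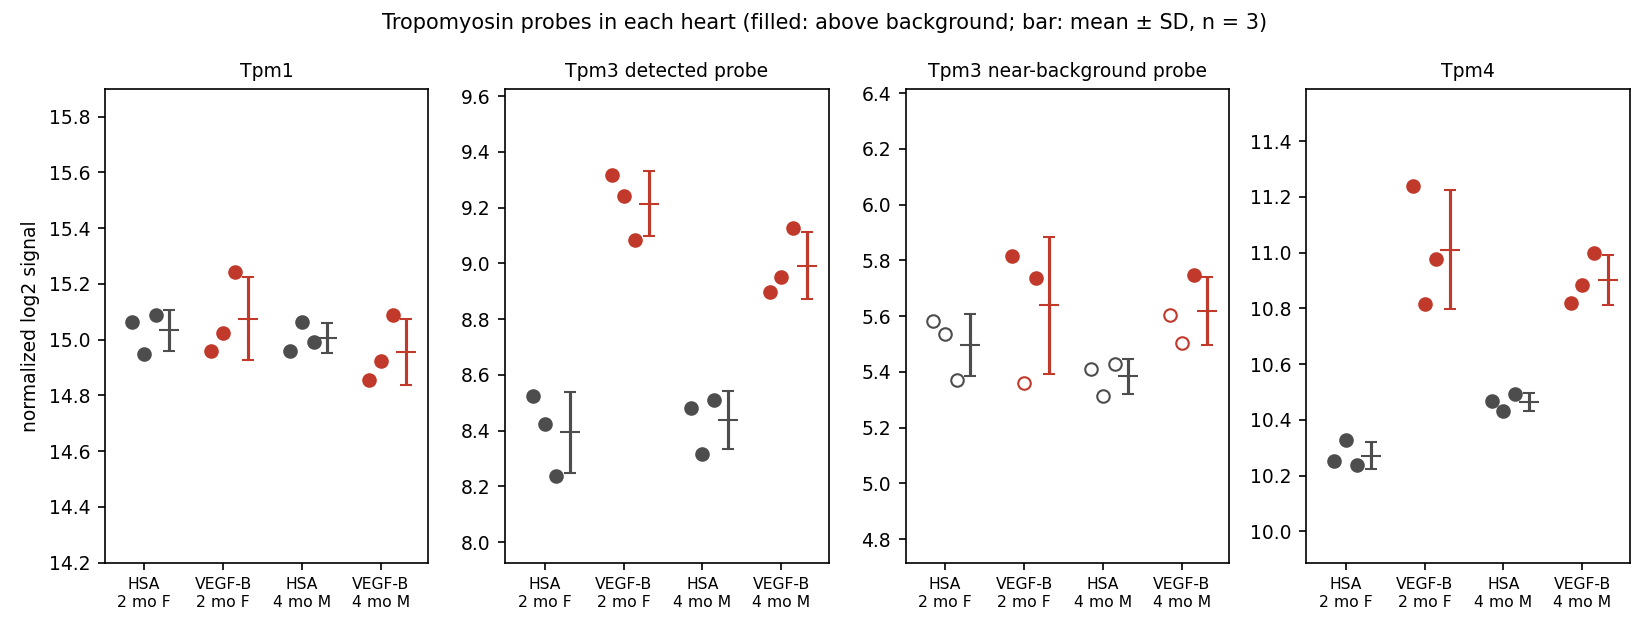
Normalized log2 signal of the 4 tropomyosin probes (vertical axis, the same span of 1.7 log2 units in each panel) in each of 12 hearts, grouped by vector and by 2-month females (F) or 4-month males (M). Filled points are above background (detection p under 0.05), open points are not, and bars give mean ± SD (n = 3). The Tpm3 detected probe and Tpm4 sit higher in every AAV-VEGF-B heart than in any AAV-HSA heart, and the Tpm1 values overlap.

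Tpm1 (probe ILMN_1354163) gave strong signals on all 12 arrays, with raw signals of 28799 to 39914 and only 3 to 30 probes higher on the same array. The highest signals of the arrays were 37131 to 45493, and whether signals this near the top are compressed was not tested. In 2-month females its normalized log2 signals were 15.06, 14.95 and 15.09 with AAV-HSA and 14.96, 15.02 and 15.24 with AAV-VEGF-B. In 4-month males they were 14.96, 15.06 and 14.99 with AAV-HSA and 14.85, 14.92 and 15.09 with AAV-VEGF-B. The vectors overlapped, with 1 AAV-VEGF-B heart above and 2 below the range of the AAV-HSA hearts. The means were 15.02 ± 0.06 (SD, n = 6) with AAV-HSA and 15.02 ± 0.14 (SD, n = 6) with AAV-VEGF-B, a log2 change of -0.0041 (SE 0.08, limma adjusted p = 0.98). The 95% interval of the change ran from -0.17 to 0.16, and its upper end lay below the lower ends of the intervals of Tpm4 and Tpm3 given next. The arrays carried no second Tpm1 probe, so opposite movements of its muscle and non-muscle isoforms would not be seen.

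Tpm4 (probe ILMN_1357093), the cytoskeletal tropomyosin, was above background in all 12 hearts, with raw signals of 1149 to 1660 in the AAV-HSA group and 1999 to 2505 in the AAV-VEGF-B group. In 2-month females the normalized log2 signals were 10.25, 10.33 and 10.24 with AAV-HSA and 11.24, 10.82 and 10.98 with AAV-VEGF-B. In 4-month males they were 10.47, 10.43 and 10.49 with AAV-HSA and 10.82, 10.88 and 10.998 with AAV-VEGF-B. The lowest AAV-VEGF-B heart, a female at 10.82, was above the highest AAV-HSA heart, a male at 10.49. The mean moved from 10.37 ± 0.11 to 10.96 ± 0.16 (SD, n = 6 each), a log2 change of 0.59 (SE 0.09, 95% interval 0.40 to 0.77, limma adjusted p = 0.00087). This was place 67 among the 10281 tested probes when ordered by p.

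Tpm3 was read by 2 probes with unlike results. The detected probe (ILMN_1649963) was above background in all 12 hearts, with raw signals of 386.7 to 511.8 in the AAV-HSA group and 611.6 to 781.7 in the AAV-VEGF-B group. In 2-month females its normalized log2 signals were 8.52, 8.42 and 8.24 with AAV-HSA and 9.32, 9.24 and 9.09 with AAV-VEGF-B. In 4-month males they were 8.48, 8.32 and 8.51 with AAV-HSA and 8.90, 8.95 and 9.13 with AAV-VEGF-B. The lowest AAV-VEGF-B heart, a male at 8.90, was thus above the highest AAV-HSA heart, a female at 8.52. The mean moved from 8.42 ± 0.12 to 9.10 ± 0.16 (SD, n = 6 each), a log2 change of 0.69 (SE 0.09, 95% interval 0.50 to 0.87, limma adjusted p = 0.00043), place 25 among the tested probes.

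The near-background Tpm3 probe (ILMN_1363774) was not above background in any AAV-HSA heart and was so in 3 of 6 AAV-VEGF-B hearts. It entered the test only through these 3 arrays, so its values are a description. Its normalized log2 signal had a lowest, median and highest value of 5.31, 5.42 and 5.58 with AAV-HSA and of 5.36, 5.67 and 5.82 with AAV-VEGF-B. The groups overlapped: 4 of 6 AAV-VEGF-B hearts exceeded the highest AAV-HSA value, while the female replicate 3 of that group was at 5.36. The change of 0.19 (SE 0.09, 95% interval 0.00017 to 0.38) was not called (limma adjusted p = 0.25), and no fold is given for a probe at background in 1 group. The 2 probes were annotated to different Tpm3 transcripts.

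Single-probe exact permutation tests over all regroupings of 6 against 6 hearts, two-sided, gave p = 0.0022 for Tpm3 on the detected probe and for Tpm4, the smallest p this design allows. The exact test gave p = 0.97 for Tpm1. On each of the 4 probes the AAV-VEGF-B hearts were more spread than the AAV-HSA hearts. The coefficient of variation of the normalized signal was 9.81% against 4.16% for Tpm1, 11.2% against 7.84% for Tpm3 on the detected probe, 11.7% against 7.09% on the other and 11.5% against 7.70% for Tpm4.

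The contrast between the sarcomeric gene Tpm1 and the other tropomyosins was measured inside each heart, as the log2 signal of a probe minus that of Tpm1, set to 0 at the AAV-HSA mean. Such a difference shows unequal change of 2 probes and says nothing of their relative levels. It carries over any compression of Tpm1 near the top of the signal range. For Tpm4 the AAV-HSA hearts lay between -0.20 and 0.16. The AAV-VEGF-B females were at 0.93, 0.44 and 0.39 and the males at 0.62, 0.61 and 0.56. For Tpm3 on the detected probe the AAV-HSA hearts lay between -0.25 and 0.13, the AAV-VEGF-B females at 0.96, 0.82 and 0.45 and the males at 0.65, 0.63 and 0.64. In both pairs the 2 vector groups did not overlap, and the 3 males agreed more closely than the 3 females. Each probe alone already separated the vectors, as 2.96% of all tested probes did, so the separation of the pairs is no independent result. The difference of changes was 0.69 (SE 0.10) for Tpm3 and 0.59 (SE 0.10) for Tpm4, each with exact permutation p = 0.0022, or 0.0032 adjusted over the 3 pairs computed. For the near-background Tpm3 probe the difference was 0.19 (SE 0.09), which is given as a value only, since the probe was at background in every AAV-HSA heart.

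The same comparison was then made in each set of rats, in a fit of 4 groups of 3 hearts that share 1 estimate of the spread. In 2-month females Tpm3 on the detected probe rose by a log2 change of 0.82 (SE 0.11, adjusted p = 0.0045), or 1.77-fold, and Tpm4 by 0.74 (SE 0.11, adjusted p = 0.0055), or 1.67-fold (limma). These 2 of 4 probes stand beside 2.53% of all tested probes called higher in females. In 4-month males Tpm3 rose by 0.56 (SE 0.11, adjusted p = 0.044), or 1.47-fold, where 0.749% of tested probes were called higher. The change of Tpm4 in males was 0.44 (SE 0.11, 95% interval 0.19 to 0.68) and did not pass (adjusted p = 0.10), although it did without background correction (0.40, adjusted p = 0.032). In males the call of Tpm3 was lost when any single heart was left out except the AAV-HSA females replicate 2 or 6, with a change of 0.49 to 0.60 and an adjusted p of up to 0.15.

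Within each set, the 3 AAV-VEGF-B hearts exceeded each of the 3 AAV-HSA hearts for Tpm3 on the detected probe and for Tpm4. Among all tested probes 11.1% did so in females and 9.56% in males. The near-background Tpm3 probe did so in males on normalized values only, and not in females. Among the males it was above background in 0 of 3 AAV-HSA and 1 of 3 AAV-VEGF-B hearts. Their raw signals overlapped, at 156.7 to 162.5 and 155.2 to 188.7. Its changes of 0.23 (SE 0.13) in males and 0.14 (SE 0.13) in females were not called and are given as values only. Tpm1 overlapped in both sets, with changes of 0.04 (SE 0.11, adjusted p = 0.87) in females and -0.05 (SE 0.11, adjusted p = 0.92) in males.

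**Figure D2:**
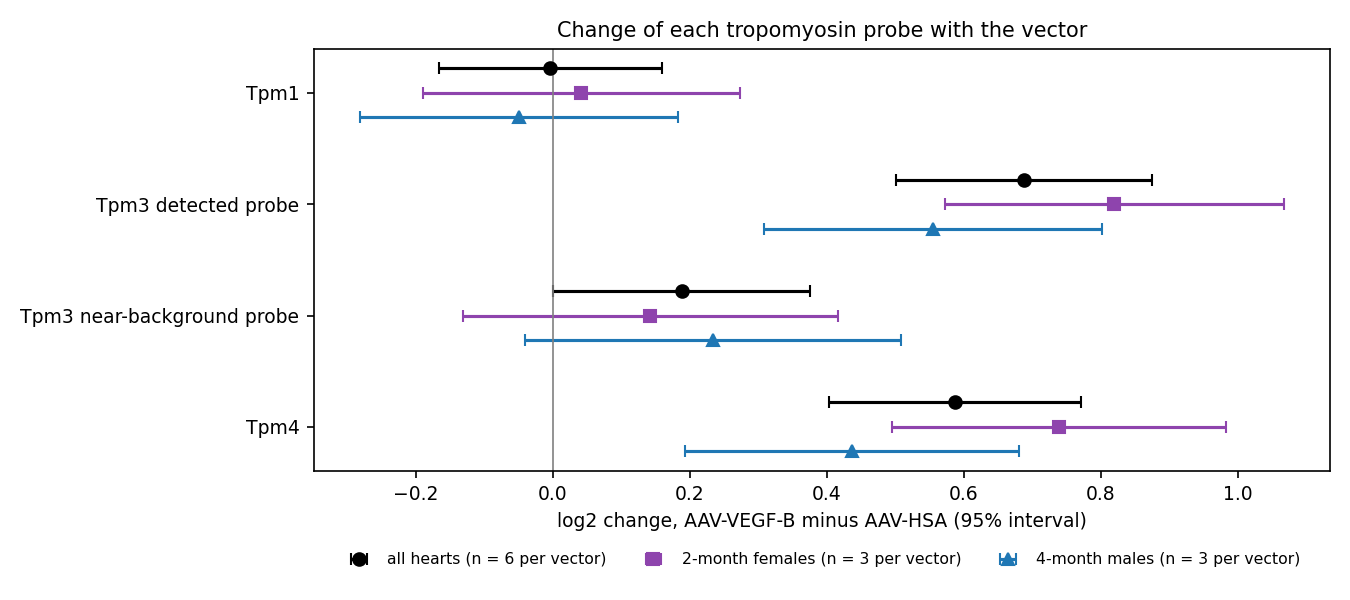
Log2 change from AAV-HSA to AAV-VEGF-B hearts (horizontal axis) of each tropomyosin probe, with 95% intervals from limma, over all hearts (circles), in 2-month females (squares) and in 4-month males (triangles). The intervals of Tpm4 and of the Tpm3 detected probe lie above 0 in all 3 comparisons, those of Tpm1 span 0, and the intervals of females and males overlap for every probe.

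Whether the vector's change differed between the sets was tested directly, as males minus females. The difference was -0.27 for Tpm3 on the detected probe (95% interval -0.61 to 0.08, adjusted p = 0.95) and -0.30 for Tpm4 (95% interval -0.65 to 0.04, adjusted p = 0.94), and so 0 of 4 probes passed, as did 0% of all tested probes. The differences were -0.09 for Tpm1 (95% interval -0.42 to 0.24) and 0.09 for the near-background Tpm3 probe (95% interval -0.30 to 0.48).

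Among AAV-HSA hearts, Tpm4 was the tropomyosin probe on which all 3 4-month males lay above all 3 2-month females, which 7.96% of tested probes did. The change of 0.19 (SE 0.11) did not pass (adjusted p = 0.59), in a comparison that called 0.0292% of tested probes. The changes of the other probes were 0.04 (SE 0.11) for Tpm3 on the detected probe, -0.11 (SE 0.13) on the other and -0.03 (SE 0.11) for Tpm1. Among AAV-VEGF-B hearts the males were lower than the females by a log2 change of -0.22 for Tpm3 on the detected probe (SE 0.11, adjusted p = 0.46), -0.12 for Tpm1 (SE 0.11, adjusted p = 0.70), -0.11 for Tpm4 (SE 0.11, adjusted p = 0.74) and -0.02 for the near-background Tpm3 probe (SE 0.13, adjusted p = 0.97). Again 0 of 4 passed, where 0.136% of tested probes did.

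Ordered by its mean, Tpm4 was lowest in AAV-HSA females (10.27 ± 0.05), then in AAV-HSA males (10.46 ± 0.03), AAV-VEGF-B males (10.90 ± 0.09) and AAV-VEGF-B females (11.01 ± 0.21; SD, n = 3 each). Tpm3 on the detected probe followed the same order, from 8.39 ± 0.15 and 8.44 ± 0.10 to 8.99 ± 0.12 and 9.21 ± 0.12. In both orders the step from AAV-HSA to AAV-VEGF-B males was larger than the SD of either, although for Tpm4 it did not pass the test. The steps between the AAV-HSA sets and between the AAV-VEGF-B sets did not pass the test.

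The other proteins of the cardiac thin filament were set beside these values. Of the 7 troponin genes above background on arrays of both vectors, 0 were called, with a median of -0.02. Among all 7437 named genes tested, 4.80% were called higher and 1.09% lower, and the median change was -0.02. The adult cardiac subunits stayed close to 0, with -0.02 (SE 0.06) for the inhibitory subunit Tnni3, -0.06 (SE 0.07) for the tropomyosin-binding subunit Tnnt2 and 0.06 (SE 0.07) for the calcium-binding subunit Tnnc1. With AAV-HSA the mean log2 signals of Tnnt2 and Tnni3 were 15.05 and 14.94, beside 15.02 for Tpm1. Compression of signals this near the top was not tested for them either. Tnnt1, Tnnt3, Tnni2 and Tnnc2, also among the 7, were at -0.14 (SE 0.18), 0.02 (SE 0.11), -0.0025 (SE 0.10) and -0.16 (SE 0.16). The tested troponin left out of the 7 was Tnni1, the slow skeletal inhibitory subunit that is also the fetal form in heart. It was not above background in any AAV-HSA heart and was so in 5 of 6 AAV-VEGF-B hearts, where it was at least 1.11-fold higher (limma adjusted p = 0.0058). For this bound, the floor of each AAV-HSA array was the dimmest signal that still counted as above background there. Tnni1 entered the test only through AAV-VEGF-B arrays, a choice that favours a difference, so its p is no support for a rise of a troponin. None of the 5 tropomodulin and leiomodin genes tested, which cap or seed the ends of tropomyosin-coated filaments, was called, with a median of -0.01. Likewise 0 of 11 thin filament and Z-disc genes (median -0.0026) and 0 of 9 thick filament genes (median -0.02) were called. Bright probes of these lists, such as Actn2 at 14.48 and Myl3 at 15.21 with AAV-HSA, have the same limit.

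Genes of non-muscle actin filaments were counted next, without a test of the difference from the sarcomeric lists. Beside these counts stand the 4.80% higher and 1.09% lower among all named genes tested. Of 10 tested genes for non-muscle actin and its nucleators, 3 were called higher and 0 lower, with a median of 0.23. They were Actb, cytoplasmic beta-actin (0.53, SE 0.09, adjusted p = 0.0023), and the Arp2/3 complex subunits Arpc1b (0.58, SE 0.09, adjusted p = 0.0011) and Arpc5 (0.36, SE 0.09, adjusted p = 0.033). Actb rose by 0.68 in females and 0.38 in males, and its values did not overlap between the vectors. Actr2 and Actr3, the actin-related subunits of the same complex, did not pass, at 0.28 (adjusted p = 0.061) and 0.04 (adjusted p = 0.84).

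Of 23 other actin-binding proteins tested, 6 were called higher and 0 lower, with a median of 0.15. The MARCKS-like protein Marcksl1, which ties actin to the membrane, rose by 0.94 (SE 0.08, adjusted p = 3.55e-05). The filament crosslinker filamin A, Flna, rose by 0.58 (SE 0.08, adjusted p = 0.00063), the transgelin Tagln2 by 0.60 (SE 0.09, adjusted p = 0.0010) and the bundling protein plastin 3, Pls3, by 0.49 (SE 0.11, adjusted p = 0.018). The other called genes were Msn, the membrane linker moesin (0.60, SE 0.14), and Cfl1, the non-muscle cofilin that severs filaments (0.32, SE 0.08). Cfl2, the muscle cofilin, was at -0.07 (SE 0.07) and did not pass. The lowest changes of the list were those of Zyx, Vcl and Ezr, at -0.31 (SE 0.11), -0.23 (SE 0.13) and -0.22 (SE 0.15), which did not pass either. Actin binding is a theme that the study drew in part from these hearts, so this count is not independent evidence of a direction. Msn and Cfl1 are named beyond the 4 members with the smallest p because the count is small.

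Of 8 tested genes of non-muscle myosin II and its control, 1 was called. This was the heavy chain Myh9 (0.58, SE 0.15, adjusted p = 0.038), a motor of tropomyosin-coated filaments in non-muscle cells. With AAV-HSA this probe was dim, at a mean log2 signal of 5.86, and passed the detection threshold on only 3 arrays. With AAV-VEGF-B it passed on 6. The strict filter, detection on all 12 arrays, left it untested, since it was detected on 9. Its call was lost without a filter on dim probes, with the replicate block and in 8 of the 12 fits that left out a heart. The other heavy chains, Myh10 and Myh14, were at 0.03 (SE 0.12) and -0.22 (SE 0.11) and did not pass. Of 5 smooth muscle contractile genes tested, 0 were called, with a median of -0.02. They were Actg2, Tagln, Smtn, Des and Synpo2. Acta2 and Myh11 had no named probe, and Cnn1, Lmod1 and Mylk were too dim to be tested. Actg2 and Tagln varied widely, with an SD of 0.90 and 0.87 with AAV-HSA, so this count says little of smooth muscle. Neither serum response factor and its cofactors (0 of 4, median -0.05) nor the muscle transcription factors (0 of 5, median -0.15) held a called gene.

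**Figure D3:**
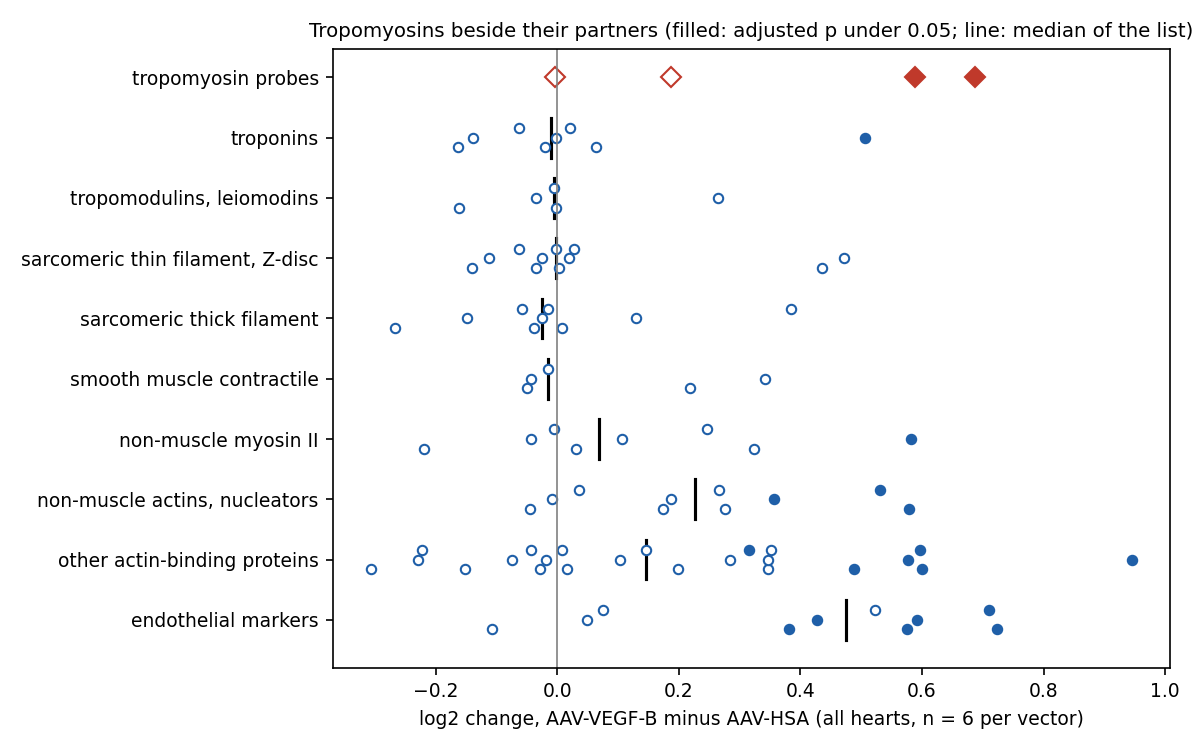
Log2 change from AAV-HSA to AAV-VEGF-B hearts (horizontal axis, n = 6 per vector) of the 4 tropomyosin probes (diamonds) and of the tested genes of 9 lists (circles). Filled symbols have a limma adjusted p under 0.05 and black lines are list medians. Medians of the sarcomeric lists lie at 0 or just below it, those of the non-muscle actin and actin-binding lists at 0.23 and 0.15, and that of all 10 endothelial markers at 0.48. Tnni1 (the filled troponin) and Cdh5 were at background in all AAV-HSA hearts.

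Markers of other cell types were read beside the rise of Tpm3 and Tpm4. Among all 7340 named genes above background on arrays of both vectors, 4.60% were called higher. Of the 9 endothelial markers among them, 5 were called higher and 0 lower, with a median of 0.52. They included Tie1 (0.72, SE 0.10, adjusted p = 0.00063) and Emcn (0.71, SE 0.09, adjusted p = 0.00039), an endothelial receptor and a sialomucin, and Icam2 (0.57, SE 0.08) and Esam (0.59, SE 0.10), adhesion molecules of endothelium. The summed signal of all 10 tested markers ran from 7680 to 9600 with AAV-HSA and from 10472 to 12631 with AAV-VEGF-B, with no overlap. The defining markers did not all move: Vwf was at 0.05 (SE 0.15), Cldn5 at -0.11 (SE 0.13) and Flt1 at 0.08 (SE 0.09). Egfl7, at 0.52 (SE 0.16), did not pass (limma adjusted p = 0.080). Pecam1 and Kdr had no named probe. Cdh5 entered the test only through AAV-VEGF-B arrays (above background in 0 of 6 AAV-HSA and 4 of 6 AAV-VEGF-B hearts) and is left out of this count. Across the 12 hearts, with the mean of each of the 4 groups removed, the summed signal correlated with Tpm3 on the detected probe at r = 0.43 and with Tpm4 at r = 0.18. Other marker sums gave values of like size: fibroblast 0.46 and 0.24, leukocyte 0.45 and -0.23, and cardiomyocyte 0.34 and 0.48. The part of endothelial cells in the rise of either tropomyosin was not tested.

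Of 6 smooth muscle and pericyte markers 3 were called higher, with a median of 0.43, where 4.80% of all named genes tested were. The 3 were Mcam, Cspg4 and Kcnj8, at 0.99 (SE 0.17), 0.49 (SE 0.09) and 0.44 (SE 0.12). The contractile markers of this list that could be tested, Tagln and Smtn, were at 0.22 (SE 0.34) and -0.05 (SE 0.08) and did not pass. The summed signals of the list overlapped, at 4247 to 4989 and 4623 to 5601. Such a sum is weighted towards its brightest gene, here Smtn, and says little of the 3 called markers. With AAV-HSA the mean log2 signal was 11.74 for Smtn, 8.99 for Cspg4, 8.22 for Kcnj8 and 5.86 for Mcam. With the group means removed, the sums correlated with Tpm3 on the detected probe at r = -0.51 and with Tpm4 at r = -0.28. None of 10 fibroblast, 4 leukocyte, 10 cardiomyocyte and 4 skeletal muscle genes tested was called. The fibroblast sum nonetheless exceeded the AAV-HSA range in 4 of 6 AAV-VEGF-B hearts (25754 to 30528 against 24418 to 37230), and the leukocyte sum in 2 of 6 (355 to 402 against 362 to 546). The part of these cells in the rise of Tpm3 and Tpm4 was not tested.

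The 2 atrial genes tested, Nppa and Myl7, did not pass, but their summed signal stood apart in the AAV-VEGF-B females, at 7204 to 16328 against 1538 to 3512 in AAV-HSA females. Nppa, the atrial natriuretic peptide, is also a gene of stressed ventricle. In 4-month males the sums overlapped, at 618 to 2243 with AAV-VEGF-B and 547 to 1820 with AAV-HSA, where the changes given above were 0.56 for Tpm3 on the detected probe and 0.44 for Tpm4, of which the latter did not pass. With the group means removed, the atrial sum correlated with Tpm4 at r = 0.50 and with Tpm3 at r = -0.02. What these genes have to do with the changes of Tpm3 and Tpm4 was not tested.

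The tropomyosin probes were also compared with each other across the 12 hearts, as a description, since the points share the vectors and arrays. Tpm3 on the detected probe and Tpm4 followed each other closely (Pearson r = 0.94, Spearman rho = 0.85), and less so once the means of the 2 vectors (r = 0.54) or of the 4 groups (r = 0.46) were removed. Tpm4 and the near-background Tpm3 probe gave r = 0.68, then 0.45 with the vector means removed and 0.81 with the group means removed. That Tpm3 probe was above background on 3 of the 12 arrays. Tpm1 followed neither Tpm4 (r = -0.02) nor the detected Tpm3 probe (r = 0.01).

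Among 7436 other named genes, those most like Tpm4 over the 12 hearts were Tagln2 (r = 0.97), Flna (0.96), Pgm2 (0.96), Manf (0.96) and Ttc9 (0.95). Those most like Tpm3 on the detected probe were Arhgap29 (0.97), F2r (0.96), Cttnbp2nl (0.96), Sgk1 (0.96) and Cmtm3 (0.96). All 10 were called higher in AAV-VEGF-B hearts, as such a choice favours, with log2 changes of 0.43 for Cttnbp2nl to 1.29 for Sgk1. With the group means removed, other genes led: Ctps1, Arf6, Mtrr, Loxl3 and Syde1 for Tpm4 (r = 0.92 to 0.94) and Map4k4, C4b, Or2y14, Utp25 and Sp140 for Tpm3 (r = 0.91 to 0.94). Of these 10 genes Map4k4 was called between the vectors (0.61, SE 0.15, adjusted p = 0.022) and the other 9 were not. In this second order Tpm3 was place 830 for Tpm4, and Tpm4 was place 844 for Tpm3, with r = 0.46 where 5% of all genes exceeded 0.59 and 0.60.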

How the data were processed

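RNA was measured on 12 arrays of 1 colour. The authors deposited probe signal intensities that had not been normalized, with detection p-values, and also log2 values. No deposited log2 value was more than 0.0093 away from quantile-normalized signals on that scale, and they served as an alternative. How the authors treated background and dim probes is not given in the sources used. Intensities were processed by the neqc function of limma 3.58.1 (R 4.3.3), which takes log2 after normexp (offset 16) and quantile steps. The filter kept the 10281 of 22517 probes above background (detection p under 0.05) on 3 or more arrays, which were fitted with lmFit and eBayes, with Benjamini-Hochberg adjustment and a threshold of 0.05. The same normalization, an empirical Bayes test and this adjustment are named in the supporting methods, which name no covariate. The vectors were therefore compared without covariates, and a fit of 4 groups gave the values by set. Of the probes, 13787 carried 1 gene symbol in the platform annotation, and the probe with the highest mean stands for a listed gene. Median array signals were 151.8 to 179.6. The number of arrays limits the precision. Nothing in the labels says how the hearts were batched.

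The members and the 17 gene lists were chosen with earlier results of these data known. Named genes are the tropomyosin probes, up to 4 called members of a list with the smallest p, and the 5 genes most correlated with each called tropomyosin probe, before and after removing group means. Values beyond these were chosen after they were seen. The alternatives were no background correction, the deposited values, median scaling, another offset or filter, the set or the replicate number as a block, and leaving out each heart. On simulated data, 71 of 100 probes changed by 0.5 and 93 of 100 changed by 1 on the log2 scale were recovered among 10281 probes.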

Additional observations from a re-analysis of the deposited data

How the results depend on the processing

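The calls of Tpm4 and of Tpm3 on the detected probe over all hearts held in all 20 alternatives, with log2 changes of 0.53 to 0.70 and of 0.53 to 0.83, and Tpm1 and the near-background Tpm3 probe were called in none. The near-background probe had no value with the filter for detection on all 12 arrays. In females both calls held in all 18 alternatives. In 4-month males Tpm4 passed without background correction (0.40) and with the deposited log2 values (0.41). Tpm3 on the detected probe in males ranged from 0.49 to 0.60 with single hearts left out, and 10 of these 12 fits lost its call. The near-background probe minus Tpm1 ranged from 0.14 to 0.25, given as values only. The replicate numbers of the labels join hearts of opposite sets, and hearts of the same number did not deviate together (r = -0.19 to -0.05 in 6 pairs, 0 of which matched best). With the number as a replicate block, Tpm3 changed by 0.69 and Tpm4 by 0.59 as before, and 300 probes were higher and 42 lower, against 429 and 106. Median scaling moved the median change of all probes from -0.02 to 0.08 and gave 842 higher and 27 lower, and under it Tpm3 and Tpm4 stayed called. The lower count was 174 without background correction, 179 with the deposited values and 180 with the set as a block. Leaving out a heart gave 322 to 415 higher and 49 to 115 lower, with 49 without AAV-VEGF-B replicate 1 and 66 without AAV-HSA replicate 3. The causes were not tested. Signal over background limits the second Tpm3 probe.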
